A study of Mus musculus with 2 samples.

Results

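Heat shock and chaperone genes were compared between the skin of newborn mice lacking Sdr9c7 and of wild-type mice. The set held 10 genes: Hspa1a, Hspa1b, Hspa8, Dnajb1, Hsph1, Bag3, Hspb1 and Hsp90aa1, whose products work in the cytosol and nucleus, Hspa5 in the endoplasmic reticulum, and Hspd1 in mitochondria. Their probes were found by gene name among the non-control probes of the array. Of the 10 genes, 9 had probes under their own name, with 13 of the 39429 probes on the array, and these 9 were measured on both arrays, among 22728 measured gene names in all. Hspa1b had 0 probes of its own.

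Dorsal skin was taken at postnatal day 0 from Sdr9c7-/- mice and from Sdr9c7+/+ mice, both on the C57BL/6J background, and hybridised to Agilent 1-colour arrays from 200 ng of total RNA. Each genotype had 1 array, and each array received RNA pooled from 5 animals. The labels name no promoter, Cre driver, other allele or treatment in either group. The tissue is labelled skin, while the design text calls it epidermis. SDR9C7 is a dehydrogenase of the upper epidermis that acts on the acylceramides from which the lipid barrier of the skin is built.

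Molecular chaperones hold unfolded proteins, help them to fold and pass those that cannot be folded on to degradation. When unfolded protein builds up in the cytosol, as after heat, heat shock factor HSF1 is released from its chaperones, binds heat shock elements in DNA and drives the genes of inducible HSP70, its J-protein and nucleotide exchange partners, small heat shock proteins and HSP90. The endoplasmic reticulum and the mitochondria have chaperones of their own, under the unfolded protein responses of those compartments. Keratinocytes of the epidermis hold much HSPB1, a small heat shock protein bound up with their differentiation.

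Signals are given relative to each array, where 1 is the array's 75th percentile of intensity. Pairs of signals are given with the wild type first, and differences are knockout minus wild type on the log2 scale. With 1 array per genotype there was no replicate error and no test, and genotype cannot be told apart from the array with its labelling and hybridisation. The only measures of error are technical, from within the arrays. Genes with a signal of at least 1 on both arrays are called bright. Over the 1472 bright genes with several probes, the pooled SD of the log2 difference between probes of a gene was 0.15. The same SD over all 5178 genes with several probes was 0.25, and the median SD between repeated spots of a probe was 0.06. Each probe of the set was printed once, and 7 of its genes had a single detected probe, so for these the difference rests on 1 spot per array.

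The labels were checked on the deleted gene. Sdr9c7 had a signal of 0.324 on the wild-type array and 0.0478 on the knockout array, 6.77-fold lower. Probes well above background made up 75% of probes on the wild-type array and 77% on the knockout array, and no spot was saturated. Keratinocyte genes were bright on both arrays, with Lor at 112 on the wild-type array against 101. Marker genes of fibroblasts, muscle, fat and blood were also well above background. Over all measured genes the median difference was -0.04 with quartiles at -0.21 and 0.12, with 43.1% of genes above 0 and 56.9% below.

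The sequences upstream of the transcription starts are shown first, because HSF1 and the endoplasmic reticulum stress factors are known to act through short elements near the starts of such genes. They are from RefSeq for build GRCm38.p6, in windows of 250 bases before to 50 bases after each annotated start, and 8 of the 10 genes had at least 1 window. Hspa8 and Hsp90aa1 had none in the table used. The 250 bases before the start are printed 5′ to 3′ on the strand of the gene, with the motif matches in capitals. In Hspa1a, Hspa1b and Hspb1 the capitals mark the pair GAANNTTC, in Hspa5 the endoplasmic reticulum stress element, CCAAT and CCACG with 9 bases between them, and the Dnajb1 window held no match. Hspa1a (chr17:34972157-34972406, minus strand) and Hspa1b (chr17:34959239-34959488, minus strand) are inducible HSP70 genes 10120 bases apart. Hspb1 lies at chr5:135887669-135887918 (plus strand), Hspa5 at chr2:34771840-34772089 (plus strand) and Dnajb1, shown because it had the largest difference of the set, at chr8:83607925-83608174 (plus strand).
Hspa1a: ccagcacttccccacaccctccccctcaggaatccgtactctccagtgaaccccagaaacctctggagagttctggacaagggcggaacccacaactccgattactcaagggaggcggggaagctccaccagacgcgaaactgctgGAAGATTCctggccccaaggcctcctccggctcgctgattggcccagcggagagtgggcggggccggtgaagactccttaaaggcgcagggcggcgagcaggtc
Hspa1b: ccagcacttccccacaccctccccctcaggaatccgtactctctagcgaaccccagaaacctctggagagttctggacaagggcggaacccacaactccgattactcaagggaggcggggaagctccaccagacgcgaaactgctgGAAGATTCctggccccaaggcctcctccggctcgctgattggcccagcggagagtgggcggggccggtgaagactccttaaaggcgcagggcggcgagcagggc
Hspb1: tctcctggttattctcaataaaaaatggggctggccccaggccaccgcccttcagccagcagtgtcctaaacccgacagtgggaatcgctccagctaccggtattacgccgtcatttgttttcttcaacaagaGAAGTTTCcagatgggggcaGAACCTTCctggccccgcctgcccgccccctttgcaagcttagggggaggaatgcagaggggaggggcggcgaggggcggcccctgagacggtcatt
Hspa5: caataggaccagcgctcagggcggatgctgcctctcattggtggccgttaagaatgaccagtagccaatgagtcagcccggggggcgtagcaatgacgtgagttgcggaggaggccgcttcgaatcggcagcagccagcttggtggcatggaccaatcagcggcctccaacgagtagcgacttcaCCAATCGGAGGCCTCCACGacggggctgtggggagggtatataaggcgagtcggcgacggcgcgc
Dnajb1: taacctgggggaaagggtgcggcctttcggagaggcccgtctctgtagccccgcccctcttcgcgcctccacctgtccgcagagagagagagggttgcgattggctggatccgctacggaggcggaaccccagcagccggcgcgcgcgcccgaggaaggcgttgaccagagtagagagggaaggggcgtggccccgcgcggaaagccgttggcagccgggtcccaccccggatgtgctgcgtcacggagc

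The HSF1 target motif is built from GAA units in alternating orientation, so 3 patterns were searched on both strands: the pairs GAANNTTC and TTCNNGAA, and a run of 3 units, which is GAANNTTC followed after 2 bases by GAA, or the other strand of this. The pairs lie inside the run of 3 units, so a window with the run also counts for both pairs. GAANNTTC was present in 6 of the 8 genes, against 9.04% of the 27025 genes with a window, and TTCNNGAA in 2, Hspd1 and Hsph1, against 9.60%. In Hspa1a and Hspa1b GAANNTTC began 104 bases before the start, and in Hspb1 it was present at 117 and 97 bases before the start. In Bag3 it began at base 43 after the start. Runs of 3 units were present in Hspd1 and Hsph1, against 0.662% of genes. The endoplasmic reticulum stress element was found in Hspa5 alone among the 8, beginning 65 bases before the start, against 0.137% of genes. A match is a stretch of letters and not a measured binding site, and a window without one says only that these letters are not in it.

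The runs of 3 units in Hspd1 and Hsph1 are shown as 30 bases with the run in capitals. The Hspd1 stretch (chr1:55088053-55088082, minus strand) holds an element of 18 bases with overlapping matches to the run in both phases. Hspd1 and Hspe1, which encode the mitochondrial chaperonin HSP60 and its co-chaperonin HSP10, lie head to head, and their annotated ends share 96 bases. The element lies 72 to 89 bases before the annotated start of Hspe1, and 144 bases before the more downstream of the Hspd1 starts. It lies after the more upstream Hspd1 start, whose own window held 0 matches. The Hsph1 stretch lies at chr5:149636279-149636308 (minus strand), and its element of 13 bases begins 16 or 37 bases after the annotated start, depending on the start used.
Hspd1: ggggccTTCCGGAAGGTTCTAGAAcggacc
Hsph1: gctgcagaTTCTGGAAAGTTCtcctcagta

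**Figure D1:**
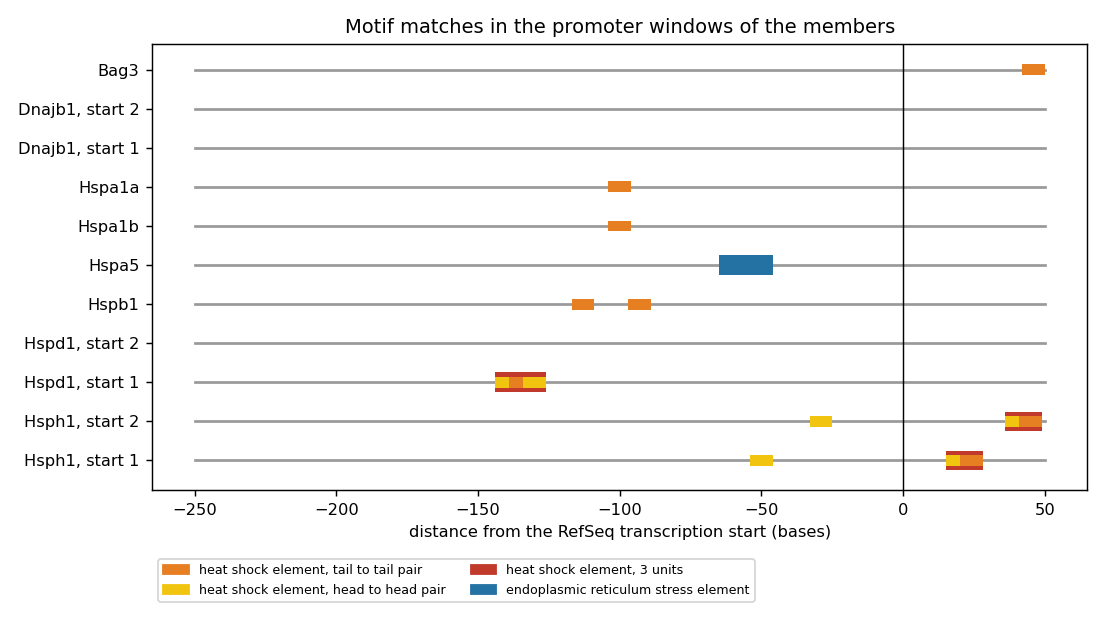
Motif matches in the 11 promoter windows of the 8 genes, by distance in bases from the RefSeq start (0, vertical line); coloured blocks are matches to each motif and grey lines the windows. Heat shock element pairs stand upstream of Hspa1a, Hspa1b, Hspb1, Hsph1 and the more downstream Hspd1 start. The stress element stands upstream of Hspa5. Both Dnajb1 windows and the window of the more upstream Hspd1 start are without a match.

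The genes of the set differed little between the arrays. A difference was counted from 25% higher in the knockout, or lower by the same ratio, which is 20% lower. Of the 9 measured genes, 1 was at least 25% higher, Dnajb1, and 0 were at least 20% lower. Over all measured genes 8.44% were at least 25% higher and 15.7% at least 20% lower, so 1 in 9 is near the background. None of the 9 reached 1.5-fold in either direction, which 2.38% of genes did upward and 6.06% downward. At least 2-fold differences were met by 0 of the 9, against 0.546% of genes higher and 1.37% lower. Differences above 0 were found for 6 of the 9, against 43.1% of all measured genes. The median of the 9 was 0.09 against -0.04 over all genes. Among bright genes, a group that holds all measured genes of the set but Hspa1a, 3.99% were at least 25% higher and 7.09% at least 20% lower.

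**Figure D2:**
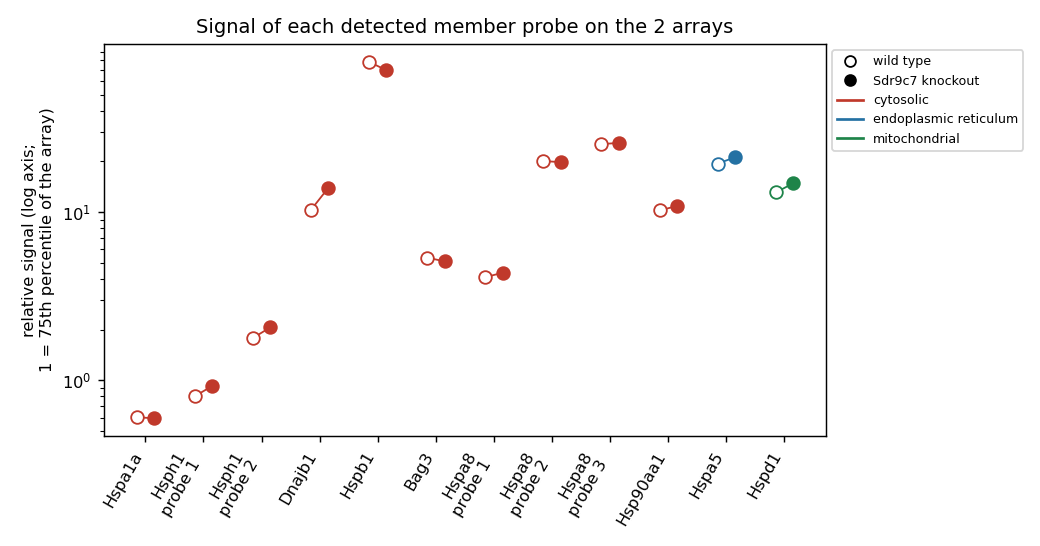
Signal of each of the 12 detected probes on the wild-type array (open) and the knockout array (filled), on a log axis relative to the array's 75th percentile; each point is 1 array, and heights of different probes are not comparable. The largest step is that of Dnajb1, from 10.3 to 13.9, and the Hspa1a points lie level.

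Inducible HSP70 is the textbook readout of the heat shock response. The Hspa1a probe read 0.603 in wild type and 0.593 in knockout skin, a difference of -0.02, less than the SD between spots of a probe. Its signal was therefore level between these arrays within the technical spread. The sign was not stable: scaling by the median gave 0.02. The probe covers chr17:35094199-35094258 (minus strand) on build mm9 in the array's annotation, and that annotation lists transcripts of both Hspa1a and Hspa1b for it. Its value is therefore that of the pair, and Hspa1b was not measured apart from it.
Hspa1a and Hspa1b probe: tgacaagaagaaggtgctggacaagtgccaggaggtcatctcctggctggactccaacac

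The pair is also close to identical upstream. Of the 300 bases of their windows, 296 were identical and 4 differed: C44T, T47C, T249G and C276T, with the Hspa1a base first, the position counted from 1 at the 5′ end of the window and the Hspa1b base last. The GAANNTTC match was the same in both genes.

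HSC70, the constitutive cytosolic HSP70, is encoded by Hspa8 and was read by 3 probes. They gave 4.10, 20.1 and 25.4 for the wild type against 4.35, 19.8 and 25.8 for the knockout, with differences of 0.09, -0.02 and 0.02. The probes lay on both sides of 0, within the spread between probes of a gene. Their mean was 0.03, 12.8 against 13.1, or 0.01 when areas of the slide where differences scattered more, which held the first probe, were left out and the arrays scaled anew. All 3 are placed on chromosome 5 of mm9 in the array's annotation, while the gene lies on chromosome 9, so the gene and near-identical copies may not be told apart by them. The Hspb1 and Hspd1 probes are likewise annotated on other chromosomes than their genes, 13 in place of 5 and 12 in place of 1.

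The partners of HSP70 ranged from -0.07 for Bag3 to 0.44 for Dnajb1. Dnajb1, the J-protein that delivers unfolded clients to HSP70, had signals of 10.3 and 13.9, a difference of 0.44 or 1.35-fold. That lies beyond the SD between probes of a gene, both the 0.15 over bright genes and the 0.25 over all genes. Hsph1, Hspb1 and Hspd1 lay beyond the first of these only. A higher difference than that of Dnajb1 was found for 4.79% of all measured genes and 1.78% of bright genes. The Dnajb1 value rests on 1 probe printed once, with a pixel-based SE of 0.0462 on the log2 scale, which covers the reading of the spot only. Hsph1, the HSP110 nucleotide exchange factor that lets HSP70 release its client, had probes at 0.802 and 1.78 on the wild-type array and at 0.924 and 2.06 on the other. Both probes were higher in the knockout, by 0.20 and 0.21, and their mean of 0.21 was passed by 15.5% of all measured genes. Bag3, a co-chaperone that joins HSP70 to small heat shock proteins and to autophagy, had 5.36 and 5.09, a difference of -0.07.

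The small heat shock protein Hspb1 and the HSP90 gene Hsp90aa1 stood on opposite sides of 0. Hspb1 had a signal of 78.3 in wild type and 69.7 in knockout, a difference of -0.17 or 1.12-fold lower, the lowest of the set. The size of this value depended on how the arrays were normalised, and it was -0.07 once the median of the neighbouring spots was subtracted. Hsp90aa1, the stress-inducible cytosolic HSP90, had 10.2 and 10.9, a difference of 0.09. Its other probe was not well above background on either array, and with that probe kept the difference was -0.10.

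**Figure D3:**
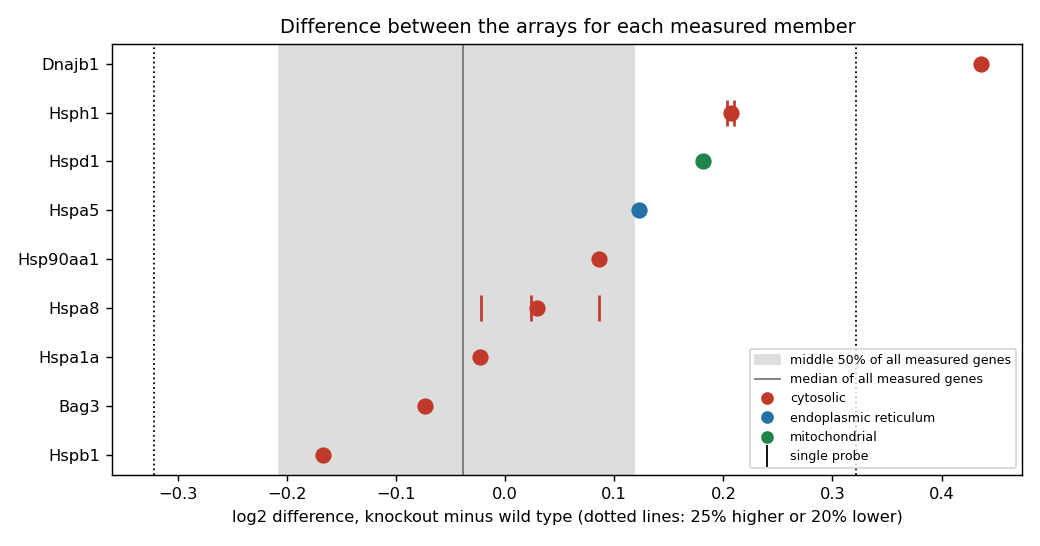
Log2 difference, knockout minus wild type, of each measured gene of the set (points, mean over probes) with single probes as ticks, beside the median and the middle 50% of all measured genes (grey) and the limits of 25% higher and 20% lower (dotted). Only Dnajb1, at 0.44, lies past a limit, and 4 of the 9 points lie outside the grey band.

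The organelle chaperones were compared with the cytosolic ones. Hspa5, known as BiP, the HSP70 of the endoplasmic reticulum that also holds the stress sensors of that compartment inactive, had 19.4 in wild type and 21.2 in knockout, a difference of 0.12. Hspd1, the mitochondrial HSP60, had 13.1 and 14.8, a difference of 0.18. Differences of the 7 measured cytosolic genes ranged from -0.17 to 0.44 with a median of 0.03, or 0.00 without Dnajb1. Of the 7, 4 were above 0, against 43.1% of all measured genes. Both organelle genes lay above 5 of the 7 and below Hsph1 and Dnajb1. The gap to the cytosolic median was 0.09 for Hspa5, or 0.07 to 0.16 under the 10 other ways of processing, and 0.15 for Hspd1, or 0.06 to 0.20. With 1 gene for each organelle and no replicate arrays, the gap has no error to be set against. Hspe1, the partner of Hspd1, had 4.85 and 5.47, a difference of 0.17 with its 3 probes between 0.11 and 0.25, close to that of Hspd1. It was the highest of a list of 14 other mitochondrial chaperones and proteases, whose median was -0.02. The median of 22 other endoplasmic reticulum chaperones and folding enzymes was 0.03. The Hspd1 difference was 0.09 once the median of the neighbouring spots was subtracted.

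The other genes of these pathways were read as lists, beside the 43.1% of all measured genes that were above 0. Among the heat shock factors and their brake, 5 of 7 were measured, with 3 above 0 and a median of 0.03. Hsf1 itself had 1.44 and 1.59, a difference of 0.14, Hsf2 had 0.08, and Hsbp1, which holds HSF1 trimers in check, had -0.05. Hsf2bp, a partner of HSF2, was the lowest at -0.77 but dim, at 0.0485 and 0.0285. Of 15 other inducible cytosolic chaperones, 8 were above 0, the median was 0.01, and 2 were at least 25% higher and 1 at least 20% lower, where 8.44% and 15.7% of all genes were. Chordc1, an HSP90 partner, had 0.991 and 1.48, a difference of 0.58. Hspa4, a relative of Hsph1, had 0.35, but its 3 probes ranged from 0.06 to 0.64. The lowest were Dnajb5 at -0.36 and Hspa4l at -0.17.

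Co-chaperones of the cytosol were level as a list, with 11 of 20 above 0, a median of 0.02 and 1 at least 25% higher. Over all measured genes 43.1% were above 0 and 8.44% at least 25% higher. The highest were Ahsa2 at 0.56, on a dim signal of 0.0109 and 0.0162, and Fkbp5, a steroid receptor co-chaperone, at 0.26, and the lowest were Bag2 at -0.23 and Dnajc5 at -0.19. The cytosolic chaperonin TRiC, which folds actin and tubulin, had the narrowest range of the pathway lists: its 8 subunits had a median of -0.04, from -0.13 for Cct6a and -0.07 for Cct7 to -0.01 for Cct2 and 0.07 for Cct5.

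In the endoplasmic reticulum, 13 of 22 chaperones and folding enzymes were above 0, against 43.1% of all measured genes, with a median of 0.03. Of the 22, 1 was at least 25% higher and 1 at least 20% lower, against the same shares of 8.44% and 15.7%. The highest were Hyou1, the HSP110 of that compartment, at 0.40 on a dim signal of 0.0358 and 0.0473, and the disulfide isomerase Pdia4 at 0.31. The lowest was the oxidase Ero1b at -0.33, on a dim signal of 0.125 and 0.0991. Sil1, the nucleotide exchange factor of BiP, was next at -0.19. The 17 regulators of the unfolded protein response had a median of 0.00, with 1 at least 25% higher and 2 at least 20% lower, against 8.44% and 15.7% of all genes. These were Ppp1r15a at 0.51, Chac1 at -0.92 and Ddit3, which encodes CHOP, at -0.43. Next highest was Derl3 at 0.22, on a dim signal of 0.0467 and 0.0544. Of 14 mitochondrial chaperones and proteases, 4 were above 0, against 43.1% of all measured genes, and the median was -0.02. Of the 14, 0 were at least 25% higher and 0 at least 20% lower, against 8.44% and 15.7% of all genes. Hspe1 was the highest, followed by Dnaja3 at 0.15, and Grpel1 at -0.14 and Clpp at -0.10 were the lowest.

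The small heat shock proteins other than Hspb1 had the lowest values of the chaperone lists. All 8 measured genes were lower in the knockout, against 56.9% of all measured genes, with a median of -0.54. Of these, 7 were at least 20% lower, 3 at least 1.5-fold and 0 at least 2-fold, against 15.7%, 6.06% and 1.37% of all genes. Hspb7, a cardiac and skeletal muscle chaperone of the cytoskeleton, had 0.276 and 0.140, a difference of -0.98. Hspb3, also known from muscle, had 0.925 and 0.482, a difference of -0.94. The smallest differences were those of Cryaa at -0.35 and Hspb9 at -0.19, each on 1 probe. Cryaa had signals of 0.210 and 0.165, and Hspb9 was dim, at 0.0504 and 0.0442. Hspb2, Cryab, Hspb6 and Hspb8, named after their values were seen, had -0.68, -0.55, -0.53 and -0.47. Hspb8, a small heat shock protein that BAG3 binds, had signals of 3.31 in wild type and 2.39 in knockout, where Bag3 had -0.07.

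Muscle and fat markers were lower on the same array. All 13 skeletal muscle markers were lower in the knockout, where 56.9% of all measured genes were below 0. Their median was -0.97, from Pvalb at -2.26 to Tnnc2 at -0.54. Their signals summed to 278 on the wild-type array against 165, a sum weighted to the brightest probes, such as Tnni2 at 86.6 and 51.7. All 9 white adipocyte markers were lower too, beside the same 56.9%, with a median of -0.89, from Cfd at -1.76 to Fabp4 at -0.34. Their summed signal was 85.6 and 55.2, of which Fabp4 alone gave 44.8 and 35.4. Only probes well above background on both arrays were read, so none of these markers could be at 0. Some were dim, such as Lep at 0.0188 and 0.0138 and Mb at 0.124 and 0.0731. In RNA of whole skin, fewer cells of a type and less RNA per cell cannot be told apart. The part of the muscle and fat content in the small heat shock protein values was not tested. Basal keratinocyte markers had a median of 0.10, from Trp63 at -0.09 to Krt15 at 0.34, and suprabasal markers had 0.02, from Lor at -0.15 to Ivl at 0.26.

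The other marker lists reported had medians nearer to 0. Hair follicle markers had a median of -0.39, from Krt35 at -0.60 to Lef1 at 0.20, and melanocyte markers -0.38, from Pmel at -0.44 to Dct at -0.07. Endothelial markers had -0.20, from Vwf at -0.40 to Emcn at -0.14. Fibroblast markers had -0.04, from Col1a1 at -0.20 to Pdgfra at 0.12, brown adipocyte markers -0.05, from Ppargc1a at -1.11 to Ucp1 at 0.39, and macrophage and mast cell markers 0.01, from Cd14 at -0.52 to Kit at 0.17. The 4 measured erythroid markers were higher, where 43.1% of all measured genes were above 0. Their median was 0.42, from Slc4a1 at 0.28 to Alas2 at 0.63. Slc4a1 was dim, at 0.0909 and 0.110, as were Ppargc1a, at 0.0939 and 0.0436, and Ucp1, at 0.0349 and 0.0457.

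**Figure D4:**
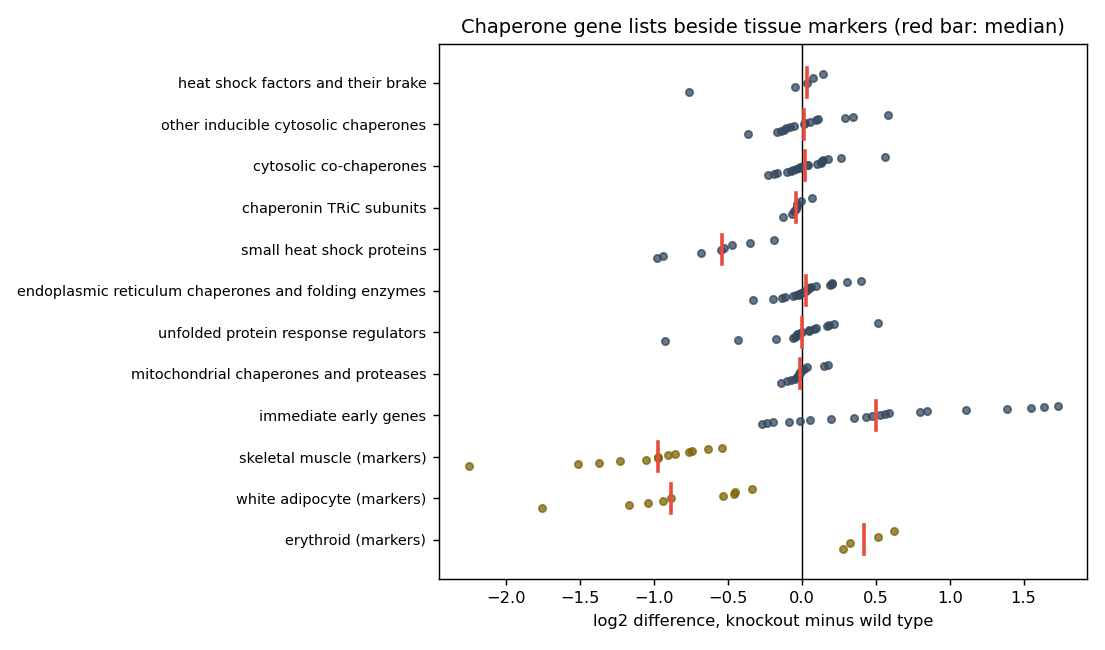
Log2 difference, knockout minus wild type, of each measured gene in the pathway lists (dark) and in 3 marker lists (olive), with the median of each list as a red bar. The other chaperone lists centre near 0, the small heat shock proteins lie wholly below 0 beside the muscle and fat markers, and the immediate early genes reach 1.73.

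Immediate early genes, which many stresses and growth signals switch on within minutes, were set beside the heat shock genes as another class of rapidly induced genes. Of 20 measured, 15 were above 0 with a median of 0.50, 13 were at least 25% higher, 5 at least 2-fold higher and 0 at least 20% lower. Over all measured genes 43.1% were above 0, 8.44% at least 25% higher, 0.546% at least 2-fold higher and 15.7% at least 20% lower. Fos had 2.08 in wild type and 6.90 in knockout, a difference of 1.73. Egr1 had 5.40 and 16.8, a difference of 1.64, and Fosb, Zfp36 and Fosl1 had 1.55, 1.39 and 1.11. Zfp36 was dim, at 0.110 and 0.287, and so was Fosl1, at 0.0610 and 0.131. The lowest were Egr2 at -0.27 and Egr3 at -0.23, the latter on a dim signal of 0.0109 and 0.00925. On the same arrays Hspa1a had -0.02, and the 7 measured cytosolic genes of the set ranged from Hspb1 at -0.17 to Dnajb1 at 0.44. Whether the immediate early and heat shock genes share a cause was not tested.

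**Figure D5:**
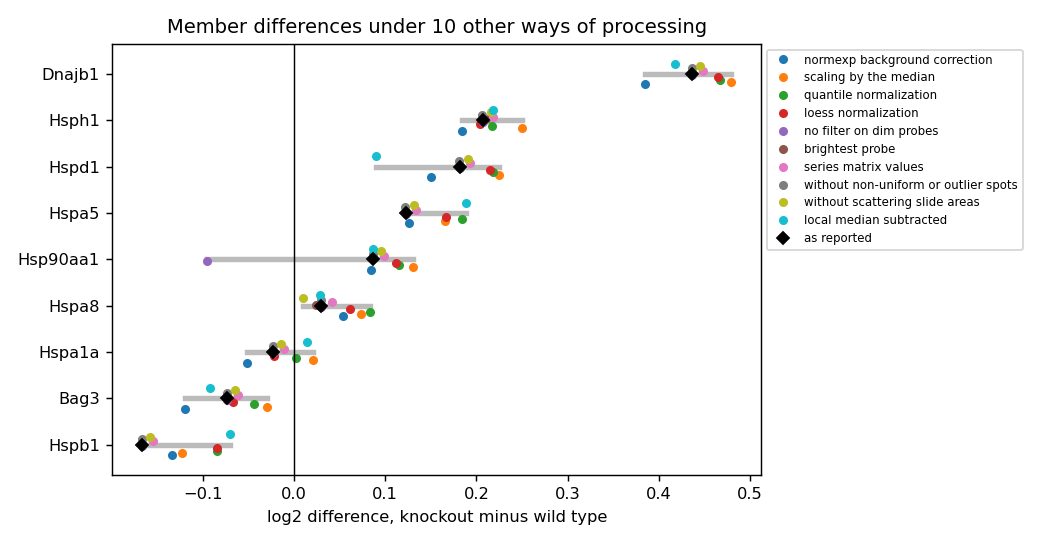
Log2 difference of each measured gene of the set as reported (black diamond) and under 10 other ways of processing (coloured points, grey bar from lowest to highest). Dnajb1 stays between 0.38 and 0.48 under all 10, while Hspa1a and Hsp90aa1 have values on both sides of 0.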

How the data were processed

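Each scanner file holds, per the file headers, the processed intensity of each spot, background-subtracted by the authors' Agilent Feature Extraction 11.5.1.1 (version per the submitters' processing notes). The series matrix that was deposited gives each spot a ratio, equal to that intensity divided by 1906 on the wild-type array and 2080 on the knockout array, with medians of 0.0855 and 0.0840. How it was made was not given in the sources used here. It has a linear scale and no centring of genes.

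Here the intensity was taken to log2, spots of a probe were averaged, and the 75th percentile of each array (an intensity of 1749 and 1925) was subtracted. Genes were given the mean of their probes well above background on both arrays. Probes were named through RefSeq accessions (28318), current symbols (2203) or synonyms (174) of GRCm38.p6, 8721 kept the name in the file, and the 13 of the set were taken by the file's gene name. No fold limit stands for a test. The number of arrays limits the precision. Python 3.11.15, numpy 2.4.6, pandas 2.3.3, scipy 1.17.1 and statsmodels 0.14.6 were used. The calculation was tested on simulated data.

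The genes of the set, the pathway and marker lists and the motifs were chosen with earlier results of these data known. Named are all genes of the set, the 2 highest and 2 lowest of each pathway list with any past 2-fold, the highest and lowest of each marker list, and Sdr9c7. Hspb2, Cryab, Hspb6 and Hspb8 were named outside this rule, after their values were seen. The result of 1 marker list is not reported here. Alternatives were normexp background correction (offset 50), median scaling, quantile and loess normalisation, no filter on dim probes, the brightest probe per gene, the series matrix values, and leaving out non-uniform or outlier spots. Leaving out slide areas in which the difference scattered, and subtracting the median of the 100 nearest spots, were added after seeing the data.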

Additional observations from a re-analysis of the deposited data

How the results depend on the processing

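Under all 10 alternatives Hsph1, Dnajb1, Hspa8, Hspa5 and Hspd1 had differences above 0 and Hspb1 and Bag3 below 0, and Dnajb1 was the only gene of the set at least 25% higher, with none 20% lower. Hspa1a ranged from -0.05 to 0.02. Hsp90aa1 was -0.10 with no filter on dim probes, through its probe not above background, and the cytosolic median was then -0.02, with 0.08 as its highest value elsewhere. Of the 9 genes, 5 to 7 were above 0. The small heat shock protein median stayed between -0.60 and -0.50 and that of the immediate early genes between 0.48 and 0.55. The near-zero medians of 4 lists changed sign under at least 1 alternative: heat shock factors (-0.09 with normexp), other inducible chaperones (-0.01 at the lowest), TRiC (0.01 with median scaling) and mitochondrial chaperones (0.03 with median scaling). Median scaling, quantile and loess normalisation moved the median of all genes from -0.04 to about 0.00. Its lowest value was -0.07, with no filter on dim probes. No paired analysis was possible because each genotype had 1 array and the labels carry no replicate numbers, and for the same reason no replicate could be left out. Of the 12 detected probes, 1 lay in the scattering areas, which held 14.2% of spots.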
